A study of Mus musculus with 12 samples.

Results

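The genes described here encode the subunits of the mitochondrial respiratory chain and ATP synthase, measured by RNA sequencing in mouse colon. They were taken by gene name (names starting Nduf with A, B, C, S or V and a number, Cox4 to Cox8, Uqcr, Atp5, the 4 genes Sdha to Sdhd, and the mitochondrially encoded mt-Nd, mt-Co, mt-Atp and mt-Cytb), which gave 111 of the 35841 genes in the table. Of these, 84 were nuclear genes, 13 were mitochondrially encoded and 14 were pseudogenes, which are given apart. By complex, the nuclear members were 37 of complex I, 4 of complex II, 8 of complex III, 18 of complex IV and 17 of complex V, and the mitochondrial members were 7, 0, 1, 3 and 2. The gene rule used no measured value.

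Total RNA from the colons of wild-type mice gave 12 libraries, 3 in each of 4 groups. The DSS+ImP group received both agents, the DSS group received DSS, the ImP group received ImP, and the Ctrl group received no agent. DSS, dextran sulfate sodium, damages the lining of the colon when drunk and serves as a standard model of colitis. What ImP stands for is not written out in the labels. They give no strain, age or sex, and do not state that the libraries are from separate animals. All p-values here therefore reflect library-to-library spread alone, which may be technical. The series title names Angelica dahurica polysaccharides in colitis, and its design text gives 7 days with or without ImP.

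The respiratory chain passes electrons from NADH (complex I) and succinate (complex II) through complex III to complex IV, which reduces oxygen, and the proton gradient so formed drives ATP synthase (complex V). Complexes I, III, IV and V combine subunits encoded by mitochondrial DNA with subunits encoded in the nucleus, whereas complex II is wholly nuclear. Mitochondrial DNA is transcribed as long polycistronic RNAs that are cut into single messengers. In the colon, absorptive epithelial cells are known to rely on mitochondrial oxidation of butyrate.

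Library totals ran from 55419380 to 67406087 estimated counts. Values in CPM are counts scaled to a common library size with TMM factors (trimmed mean of M-values). Levels of single genes are compared with each other only in FPKM, which allows for transcript length. Shares of counts and ratios of summed counts do not allow for it. Members are described as risen or fallen where edgeR's quasi-likelihood F test called them at an FDR (false discovery rate) of 0.05 over the 22279 genes tested. Each adjusted p is from that test with Benjamini-Hochberg adjustment. Log2 changes are given ± SE. Epcam and Vil1, markers of intestinal epithelium, were at 591 CPM or more in every library. Ctrl 1, 4 and 5 and DSS 2 held liver transcripts, DSS 3 and 5 and ImP 1, 3 and 4 held pancreatic transcripts, and DSS+ImP 2, 3 and 4 held neither. Ctrl 4 also had a pancreatic sum of 4.20 CPM, just under the cut of 5 CPM, against 0.214 CPM in Ctrl 1 and 0.151 CPM in Ctrl 5. The split by these transcripts cannot be told apart from the group in any comparison of DSS+ImP. Within ImP against Ctrl the same holds, as all ImP libraries held pancreatic transcripts and all Ctrl libraries held liver transcripts.

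Mitochondrially encoded messengers were by far the most abundant members. Over the 12 libraries their mean level had a median of 3791 FPKM, against 57.5 FPKM for the nuclear members. The mitochondrial range ran from 898 FPKM for mt-Nd3, a membrane subunit of complex I, to 13857 FPKM for mt-Co1, the catalytic subunit of cytochrome c oxidase (complex IV). Among the mitochondrial members, median levels were 1512 FPKM for complex I, 4405 FPKM for mt-Cytb of complex III, 6396 FPKM for complex IV and 7122 FPKM for complex V. Complex I thus had the lowest level and complex V the highest.

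The nuclear members followed another order. Median levels were 44.3 FPKM for complex I, 66.7 FPKM for complex V, 75.2 FPKM for complex II, 92.5 FPKM for complex IV and 138 FPKM for complex III. The most abundant pair in each complex was Ndufb9 (100.2 FPKM) and Ndufb10 (95.9 FPKM) in complex I, Sdhd (181 FPKM) and Sdha (96.1 FPKM) in complex II, Uqcr10 (238 FPKM) and Uqcrb (201 FPKM) in complex III, Cox8a (513 FPKM) and Cox6a1 (441 FPKM) in complex IV, and Atp5a1 (392 FPKM) and Atp5b (342 FPKM) in complex V. Atp5a1 and Atp5b encode the α and β subunits that form the catalytic head of ATP synthase. Complex I was thus the lowest complex in each genome.

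The share of all counts taken by the 13 mitochondrial messengers was lowest in DSS+ImP and highest in Ctrl. It was 4.58%, 4.59% and 5.06% in DSS+ImP, 6.22%, 5.88% and 5.96% in DSS, 5.65%, 5.91% and 5.30% in ImP, and 7.35%, 6.21% and 7.20% in Ctrl. The means were 4.74% ± 0.273 in DSS+ImP, 6.02% ± 0.176 in DSS, 5.62% ± 0.310 in ImP and 6.92% ± 0.620 in Ctrl (SD, n = 3 each). All 3 DSS+ImP libraries lay below all 9 others, whereas DSS and Ctrl overlapped because of Ctrl 4. The 95% Wilson interval of a single library was at most 0.00656 percentage points to either side, taking each estimated count as 1 read. It covers counting error only and is far smaller than the spread between libraries.

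The nuclear members together took a smaller share, which differed less between groups. It was 1.34%, 1.13% and 1.43% in DSS+ImP, 1.38%, 1.52% and 1.40% in DSS, 1.45%, 1.59% and 1.42% in ImP, and 1.93%, 1.56% and 1.55% in Ctrl. Ctrl 1 stood above every other library, and DSS+ImP overlapped DSS and ImP but not Ctrl. That overlap depends on scaling. In TMM-scaled sums the highest DSS+ImP library, at 13682 CPM, lay below the lowest of DSS (14111 CPM) and of ImP (14030 CPM). The ratio of nuclear to mitochondrial counts was 0.274 ± 0.0245 in DSS+ImP, 0.238 ± 0.0189 in DSS, 0.264 ± 0.00651 in ImP and 0.243 ± 0.0249 in Ctrl (SD, n = 3 each). In each pair of groups compared, the ratio's ranges overlapped, and at this spread no difference in the balance of the 2 genomes was resolved.

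**Figure D1:**
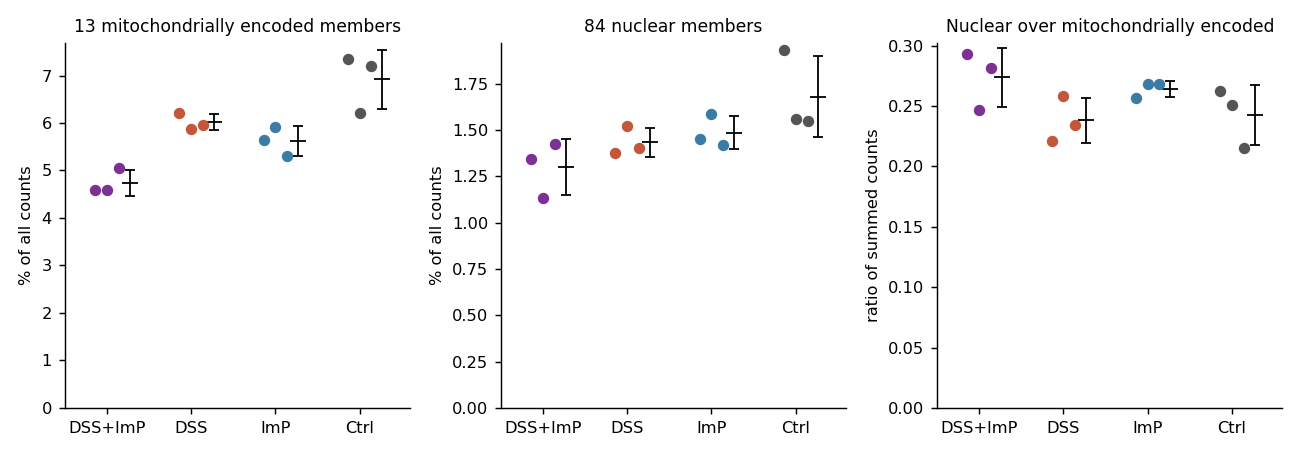
Share of all counts taken by the 13 mitochondrial and the 84 nuclear members (percent), and the ratio of nuclear to mitochondrial counts, in each library (points) with group mean ± SD (bars), for DSS+ImP, DSS, ImP and Ctrl. The mitochondrial share is 4.58% to 5.06% in DSS+ImP, below every other library, while the ratio overlaps between groups.

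The comparison of DSS+ImP with DSS asks what ImP does in colitis. Most of the members that passed were mitochondrially encoded: mt-Co1 and mt-Co3 of complex IV, mt-Nd4, mt-Nd5 and mt-Nd6 of complex I and mt-Atp6 of complex V fell. Of the 83 nuclear members tested, Sdha, the flavoprotein that oxidises succinate in complex II, fell and none rose. In all, 7 of 96 tested members fell and 0 rose, where 8.03% of all tested genes were called (4.04% lower, 3.99% higher). The share of members called (7.29%) was therefore near the background, although 88 of 96 members had log2 changes below 0, against 48.1% of all genes. The median log2 change was -0.43 over the 13 mitochondrial members and -0.23 over the nuclear members, against 0.02 over all genes.

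mt-Co1 had the largest change of the 7. Its level was 16116, 15755 and 18909.6 CPM in DSS+ImP, against 26558, 25398 and 25174 CPM in DSS. The groups did not overlap, and the log2 change was -0.60 ± 0.13 (adjusted p = 0.0173). mt-Co3, another core subunit of complex IV, had 2825, 2882 and 3159 CPM in DSS+ImP, against 4354, 4206 and 4264 CPM in DSS (-0.53 ± 0.13, adjusted p = 0.0272). mt-Co2, which takes electrons from cytochrome c, had 3556, 3419 and 4284 CPM in DSS+ImP and 5221, 5132 and 4824 CPM in DSS. These ranges did not overlap either, but mt-Co2 missed the threshold (-0.43 ± 0.14, adjusted p = 0.0758).

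Among the complex I members of mitochondrial DNA, mt-Nd6 had 384, 461 and 483 CPM in DSS+ImP, against 672, 593 and 589 CPM in DSS (-0.48 ± 0.11, adjusted p = 0.0246). It is the member encoded on the opposite strand to the others. mt-Nd4, a proton-pumping subunit, had 1958, 2143 and 2297 CPM in DSS+ImP, against 2966, 2934 and 2989.8 CPM in DSS (-0.47 ± 0.13, adjusted p = 0.0412). mt-Nd5, also a proton-pumping subunit, had 1866, 2144 and 2271 CPM in DSS+ImP, against 3125, 2649 and 2878 CPM in DSS (-0.46 ± 0.12, adjusted p = 0.0321). All 3 had DSS+ImP libraries wholly below DSS libraries. mt-Nd1, mt-Nd2, mt-Nd3 and mt-Nd4l, with log2 changes of -0.31, -0.37, -0.12 and -0.38, did not pass.

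For complex V, mt-Atp6, the membrane subunit that carries protons, had 3405, 3625 and 3773 CPM in DSS+ImP, against 5117, 4754 and 4991 CPM in DSS (-0.46 ± 0.12, adjusted p = 0.0424). mt-Atp8, whose reading frame overlaps that of mt-Atp6, had a log2 change of -0.32 ± 0.14 (adjusted p = 0.181). mt-Cytb, the only mitochondrial member of complex III, had 4262, 4810.0 and 5273 CPM in DSS+ImP and 6112, 6015 and 6137 CPM in DSS (-0.35 ± 0.13, adjusted p = 0.127). Of the 13 mitochondrial members, 12 had all DSS+ImP libraries below all DSS libraries, and mt-Nd3 was the exception. Among the nuclear members the same held for 32 of 83. Over all genes this was 14.3%.

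Sdha had 369.7, 306 and 390.0 CPM in DSS+ImP, against 438, 499 and 468 CPM in DSS (-0.40 ± 0.10, adjusted p = 0.0302). All 3 DSS+ImP libraries lay below those of DSS. The other complex II members, Sdhb (the iron-sulfur subunit), Sdhc and Sdhd (the membrane anchors), also had ranges without overlap, with log2 changes of -0.47, -0.33 and -0.37, and did not pass. The 250 bases before the start of Sdha are shown because Sdha was called against both DSS and ImP and its window held 3 matches to the NRF1 motif, named for a factor known to act at many respiratory chain promoters. The window of Cox6a1, which fell against ImP, is set beside it, and that of Cox7a1, which fell in DSS, had no match. They are from RefSeq, build GRCm38.p6, for Sdha chr13:74350241-74350490 (minus strand), Cox6a1 chr5:115348959-115349208 (minus strand) and Cox7a1 chr7:30183921-30184170 (plus strand), 5′ to 3′. Capitals mark matches on either strand to the NRF1 motif (GCGCA, any base, GCGC) or the ETS motif (CCGGAAG).
Sdha: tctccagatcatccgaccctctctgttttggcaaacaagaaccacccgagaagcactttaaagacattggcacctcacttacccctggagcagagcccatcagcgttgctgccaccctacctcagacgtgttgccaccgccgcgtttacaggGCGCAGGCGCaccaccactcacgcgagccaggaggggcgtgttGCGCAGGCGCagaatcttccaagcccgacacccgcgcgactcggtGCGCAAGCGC
Cox6a1: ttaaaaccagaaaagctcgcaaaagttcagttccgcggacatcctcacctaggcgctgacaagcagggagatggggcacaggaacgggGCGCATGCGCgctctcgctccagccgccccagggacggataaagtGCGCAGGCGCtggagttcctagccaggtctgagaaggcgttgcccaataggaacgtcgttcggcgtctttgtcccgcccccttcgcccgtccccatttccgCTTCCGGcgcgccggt
Cox7a1: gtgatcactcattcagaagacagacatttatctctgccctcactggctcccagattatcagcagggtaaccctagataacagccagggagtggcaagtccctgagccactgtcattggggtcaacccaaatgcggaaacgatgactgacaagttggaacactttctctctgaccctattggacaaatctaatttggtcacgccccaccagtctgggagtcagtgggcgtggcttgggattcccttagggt

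Of the 84 nuclear members, 68 matched a RefSeq promoter, with 73 windows in all. The NRF1 motif was in 19.18% of these windows, against 3.738% of all 32851 windows, and the ETS motif, bound by NRF-2 (GABP), was in 16.44%, against 6.907%. The YY1 motif AANATGGCG was in 4.11%, against 1.12%, and the ERR motif AAGGTCA was in 6.849%, against 4.079%, both strands counted. A match is a description of the letters, not a binding site. In DSS+ImP against Ctrl, of the 13 members with an NRF1 match, 9 fell, with a median log2 change of -0.52, and of the 55 without it 43 fell, with a median of -0.54. For the ETS motif the values were 8 of 12 (-0.55) with it and 44 of 56 (-0.54) without it.

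These calls against DSS rested on every library of the contrast except DSS+ImP 4. With DSS+ImP 2, DSS+ImP 3, DSS 2 or DSS 5 left out, 0 members were called, and without DSS 3 there were 3, against 14 without DSS+ImP 4 and 12 without Ctrl 1. Without DSS+ImP 3 the nuclear median was -0.15. Epithelial markers were also lower in DSS+ImP: all 12 had log2 changes below 0 and 3 fell, and their summed level was 15703 to 22129 CPM in DSS+ImP, against 25777 to 27716 CPM in DSS. The 12 leukocyte markers summed to 865 to 1939 CPM in DSS+ImP, against 415 to 625 CPM in DSS, with 6 higher and 1 lower. None of the markers of either list was at 0 throughout a group. Their part in the lower mitochondrial and nuclear levels was not tested, and in whole tissue fewer cells of a type and less RNA per cell cannot be told apart.

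The comparison of DSS with Ctrl asks what colitis alone does. Cox7a1, an isoform of a small complex IV subunit that is best known from heart and skeletal muscle, fell, and no other member passed in either direction. It had 4.66, 5.78 and 5.60 CPM in DSS, against 20.0, 10.3 and 10.8 CPM in Ctrl, with no overlap (-1.36 ± 0.28, adjusted p = 0.0232). This was 1 of 96 members, against 2.8% of all tested genes called (1.59% lower, 1.21% higher). Without Ctrl 1, the highest library, the change of Cox7a1 was -0.98 (adjusted p = 0.0828), and the call was also lost without DSS 2, 3 or 5 (adjusted p 0.0661 to 0.0851). Among the 4 libraries with liver transcripts the change was -1.53 (adjusted p = 0.188), with DSS 2 as the only DSS library. Its broadly expressed counterpart Cox7a2 had 114, 120.3 and 110.2 CPM in DSS and 182, 125 and 133 CPM in Ctrl (-0.35 ± 0.14, adjusted p = 0.256).

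Most other members had small negative changes in DSS. Log2 changes were below 0 for 95 of 96, against 52.6% of all genes, with Sdhd the exception at 0.12. The median was -0.30 over nuclear members and -0.11 over mitochondrial members, against -0.02 over all genes, and 35 nuclear but only 2 mitochondrial members had ranges without overlap, where the share over all genes was 12.5%. The nuclear median was -0.14 without Ctrl 1, and the mitochondrial median was -0.23 without Ctrl 4. Among libraries with liver transcripts the medians were -0.31 (nuclear) and -0.04 (mitochondrial). mt-Co1 had a log2 change of -0.31 ± 0.13 (adjusted p = 0.265), whereas mt-Nd5 was at -0.01 ± 0.12 (adjusted p = 0.988). The 12 epithelial markers summed to 25777 to 27716 CPM in DSS, against 33482 to 37365 CPM in Ctrl. One by one they split, with 6 log2 changes below 0 and 6 above, 1 marker higher and 1 lower by the test, and a median of 0.03. Of the 12 leukocyte markers 2 rose in DSS, S100a8 and S100a9. The list as a whole split, with 6 log2 changes below 0 and 6 above and a median of -0.04. The part of either list in the members' changes was not tested.

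In ImP against Ctrl, 0 of 96 members passed edgeR's test, 19 had an unadjusted p under 0.05 and DESeq2 called 2, against 1.99% of all genes called (0.929% lower, 1.06% higher). Log2 changes were below 0 for 94 members, against 51% of all genes, with medians of -0.23 over nuclear and -0.23 over mitochondrial members and -0.01 over all genes. Ranges did not overlap for 14 nuclear and 4 mitochondrial members that were lower in ImP, against 11.6% of all genes. The 3 mitochondrial members of complex IV had the largest mitochondrial changes. mt-Co1 had 25253, 24557 and 20889.5 CPM in ImP, against 35896, 28282 and 31496 CPM in Ctrl (-0.44 ± 0.13, adjusted p = 0.112). The ranges did not overlap, but the difference missed the threshold. The nuclear median was -0.05 without Ctrl 1, and the mitochondrial median was -0.36 without Ctrl 4. With the libraries' liver or pancreatic transcripts as a term, the mitochondrial median was -0.06. That fit could separate the term from ImP only through the DSS libraries, DSS 2 against DSS 3 and 5. All 10 smooth muscle markers had log2 changes above 0 in ImP against Ctrl, with a median of 0.71, 9 with an unadjusted p under 0.05 and 0 called by edgeR's test, and 4 lay wholly above Ctrl. The epithelial markers summed to 24392 to 32803 CPM in ImP, below the 33482 to 37365 CPM in Ctrl, with 7 of 12 below 0, 1 higher and 1 lower by the test. The part of these markers in the members' changes was not tested.

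The comparison of DSS+ImP with ImP asks what colitis does where ImP is given. Cox6a1, mt-Co1 and Sdha fell and Ndufa4l2 rose, 4 of 96 members, against 9.33% of all genes called (4.92% lower, 4.41% higher). Cox6a1, the broadly expressed isoform of subunit VIa of complex IV, had 254, 249 and 293 CPM in DSS+ImP, against 368, 411 and 369 CPM in ImP (-0.53 ± 0.13, adjusted p = 0.0216). mt-Co1 and Sdha changed by -0.48 ± 0.13 (adjusted p = 0.0372) and -0.37 ± 0.10 (adjusted p = 0.037). Ndufa4l2, a paralog of the complex IV subunit Ndufa4 that is known as a target of hypoxia-inducible factor, had 2.32, 2.13 and 1.23 CPM in DSS+ImP, against 0.693, 0.748 and 0.924 CPM in ImP (1.26 ± 0.32, adjusted p = 0.0286). In all 4 the groups did not overlap.

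Ndufa4l2 was the only member that rose in any comparison. Against ImP, no member rose without any 1 of DSS+ImP 2, DSS+ImP 3, ImP 1, ImP 3 or ImP 4. Nor did any with a replicate block, in a fit to DSS+ImP and ImP alone, or with genes filtered at 1 CPM in 6 libraries. Against DSS, where Ndufa4l2 had 0.921, 0.943 and 1.06 CPM, its log2 change in DSS+ImP was 0.96 ± 0.32 (adjusted p = 0.0879), and against Ctrl it was 0.85 ± 0.32 (adjusted p = 0.0757). Ndufa4 itself had 81.8, 68.4 and 96.2 CPM in DSS+ImP, 97.8, 109.9 and 93.8 CPM in DSS, 89.4, 127 and 98.7 CPM in ImP, and 159, 115 and 109 CPM in Ctrl. In FPKM, Ndufa4l2 stood at 3.02% ± 1.25 of Ndufa4 in DSS+ImP, 1.22% ± 0.165 in DSS, 0.960% ± 0.222 in ImP and 1.08% ± 0.404 in Ctrl (SD, n = 3 each). The DSS+ImP values were the highest 3 of the 12, and even there the paralog was a small fraction of Ndufa4.

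Across DSS+ImP against ImP, 92 of 96 members had log2 changes below 0 (49.3% over all genes), and 39 nuclear and 9 mitochondrial members had DSS+ImP wholly below ImP (13.8% over all genes). The medians were -0.32 over nuclear and -0.30 over mitochondrial members, against 0.00 over all genes. With DSS+ImP 2, DSS+ImP 3 or ImP 3 left out, 0 members were called, and without DSS 5, ImP 1 or Ctrl 5 there were 2, against 12 without DSS+ImP 4 and 17 without Ctrl 1. All 12 epithelial markers had log2 changes below 0 in DSS+ImP against ImP, and 7 of them fell. Leukocyte markers summed to 865 to 1939 CPM in DSS+ImP, against 489 to 669 CPM in ImP, with 5 higher and 1 lower. The part of either list in the members' changes was not tested.

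The interaction asks whether the change with DSS differs where ImP is given. By edgeR's test 0 of 96 members passed, with a lowest adjusted p of 0.232, and 2 members, Ndufa4l2 and Cox6b2, had an unadjusted p under 0.05. Over all genes 0% passed. The median interaction was 0.01 over nuclear members, and it changed sign with single libraries left out (-0.17 without Ctrl 1, 0.10 without Ctrl 4). Over mitochondrial members it was -0.17, between -0.26 without ImP 4 and -0.09 without Ctrl 4.

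The comparison of DSS+ImP with Ctrl, the untreated colon, was added after the data were seen. Here members of all 5 complexes fell: 72 of 96 members fell and 0 rose, where 22.7% of all genes were called (11.8% lower, 10.9% higher). Log2 changes were below 0 for 93 members, against 49.7% of all genes. In complex I, 28 of 36 nuclear and 6 of 7 mitochondrial members fell, in complex II 3 of 4, in complex III 7 of 8 nuclear members but not mt-Cytb, in complex IV 12 of 18 nuclear and all 3 mitochondrial members, and in complex V 11 of 17 nuclear and both mitochondrial members. The median log2 change was -0.53 over nuclear and -0.51 over mitochondrial members, against 0.00 over all genes. DSS+ImP libraries lay wholly below Ctrl libraries for 63 nuclear and 11 mitochondrial members, against 20.1% of all genes. These values share the Ctrl and DSS+ImP libraries with the comparisons above.

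**Figure D2:**
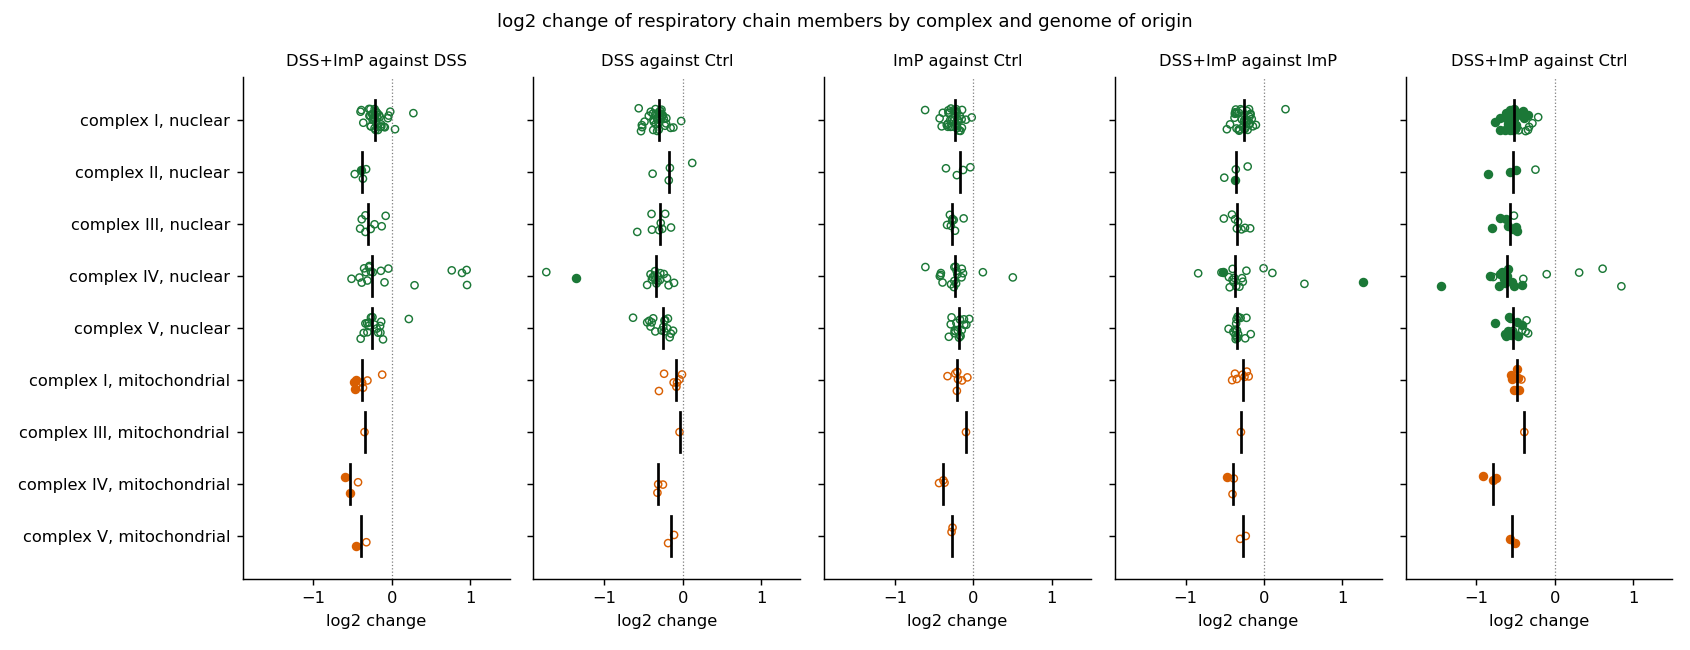
Log2 change of each tested member by complex and genome in 5 comparisons. Points are members, filled where the FDR is under 0.05, and black lines are medians. In DSS+ImP against Ctrl most points are filled and below 0, and 72 of 96 fell.

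The count for DSS+ImP against Ctrl depended on single libraries more than the direction did. It was 33 without DSS+ImP 3, 37 without DSS+ImP 2 and 38 without Ctrl 1, and at most 78, with the nuclear median at -0.34 without Ctrl 1. Ctrl 1 was the highest of the 12 libraries for 76 of 83 nuclear members, and DSS+ImP 3 was the lowest for 66. The group mean was lowest in DSS+ImP for 74 of 83 nuclear members and highest in Ctrl for 78. For all 13 mitochondrial members it was lowest in DSS+ImP and highest in Ctrl, with DSS+ImP 2 the lowest library for 11. Epithelial markers summed to 33482 to 37365 CPM in Ctrl, with 6 lower and 1 higher in DSS+ImP, and leukocyte markers to 438 to 474 CPM, with 6 higher and 1 lower. Smooth muscle markers summed to 2765 to 3546 CPM in DSS+ImP, against 1924 to 2758 CPM in Ctrl, without overlap, and 3 of 10 rose, with a median log2 change of 0.55. Their part in the member counts was not tested.

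By size, the members that fell most against Ctrl were Cox7a1, mt-Co1, Sdhb, Cox4i1, Uqcrb, mt-Co3, Ndufa13 and Atp5j2, and each kept its call with any single library left out. Cox7a1 had 4.29, 4.13 and 6.61 CPM in DSS+ImP (-1.45 ± 0.28 against Ctrl, adjusted p = 0.00309), close to its DSS values (-0.09 ± 0.28 against DSS, adjusted p = 0.885). Without Ctrl 1 its change against Ctrl was -1.07. mt-Co1 changed by -0.91 ± 0.13 (adjusted p = 0.000474) and mt-Co3 by -0.78 ± 0.13 (adjusted p = 0.00109). Each of the 3 had DSS+ImP libraries wholly below Ctrl libraries.

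**Figure D3:**
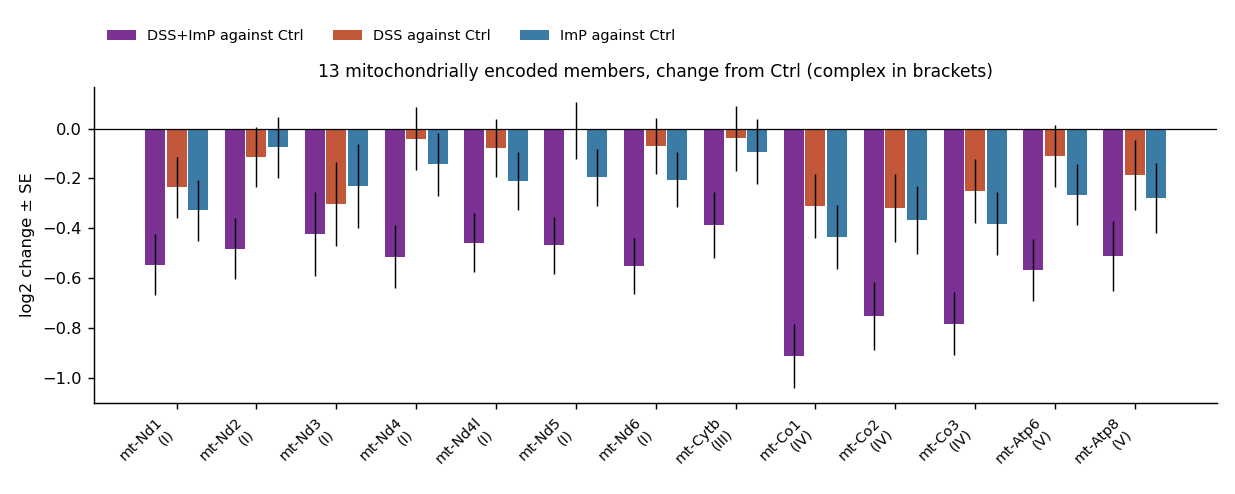
Log2 change (bars, ± SE) of each of the 13 mitochondrially encoded members in DSS+ImP, DSS and ImP, each against Ctrl. mt-Co1 has the largest changes in DSS+ImP and ImP (-0.91 and -0.44), and every bar lies below 0.

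Sdhb had 106, 80.7 and 111 CPM in DSS+ImP, 129, 147 and 137 CPM in DSS, 133, 157 and 132 CPM in ImP, and 221, 153 and 165 CPM in Ctrl (-0.85 ± 0.15 against Ctrl, adjusted p = 0.00193). Cox4i1, the largest nuclear subunit of complex IV, had 461, 390.3 and 528 CPM in DSS+ImP, 656, 681 and 634 CPM in DSS, 625, 668 and 529 CPM in ImP, and 1007, 712 and 730.4 CPM in Ctrl (-0.83 ± 0.15, adjusted p = 0.00221). In both genes DSS+ImP was lowest, DSS and ImP overlapped each other, and Ctrl 1 was well above the rest.

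Uqcrb, a small ubiquinone-binding subunit of complex III, had 146, 127 and 183 CPM in DSS+ImP, against 335, 236 and 220.3 CPM in Ctrl (-0.80 ± 0.16, adjusted p = 0.00452). Ndufa13, an accessory subunit of complex I also known as GRIM-19, had 40.7, 35.4 and 49.2 CPM in DSS+ImP, against 87.5, 61.2 and 63.9 CPM in Ctrl (-0.76 ± 0.16, adjusted p = 0.00452). Atp5j2, a membrane-sector subunit of ATP synthase, had 159, 148 and 182 CPM in DSS+ImP, against 356, 235 and 239.5 CPM in Ctrl (-0.76 ± 0.16, adjusted p = 0.00483). None of these ranges overlapped.

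Of the most abundant nuclear members, Atp5b had 1393, 1137 and 1518 CPM in DSS+ImP, against 2133, 1772 and 1736 CPM in Ctrl (-0.48 ± 0.13, adjusted p = 0.0213), and Atp5a1 changed by -0.42 ± 0.12 (adjusted p = 0.0302). Cox8a, Cox6a1, Uqcr10, Ndufb9 and Ndufb10 fell with log2 changes of -0.61, -0.67, -0.47, -0.62 and -0.59. Sdhd did not pass (-0.25 ± 0.13, adjusted p = 0.208), nor did Atp5g1, Atp5g2 and Atp5g3, the genes of the c-ring subunit (-0.53, -0.34 and -0.36, adjusted p 0.0755 to 0.127).

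**Figure D4:**
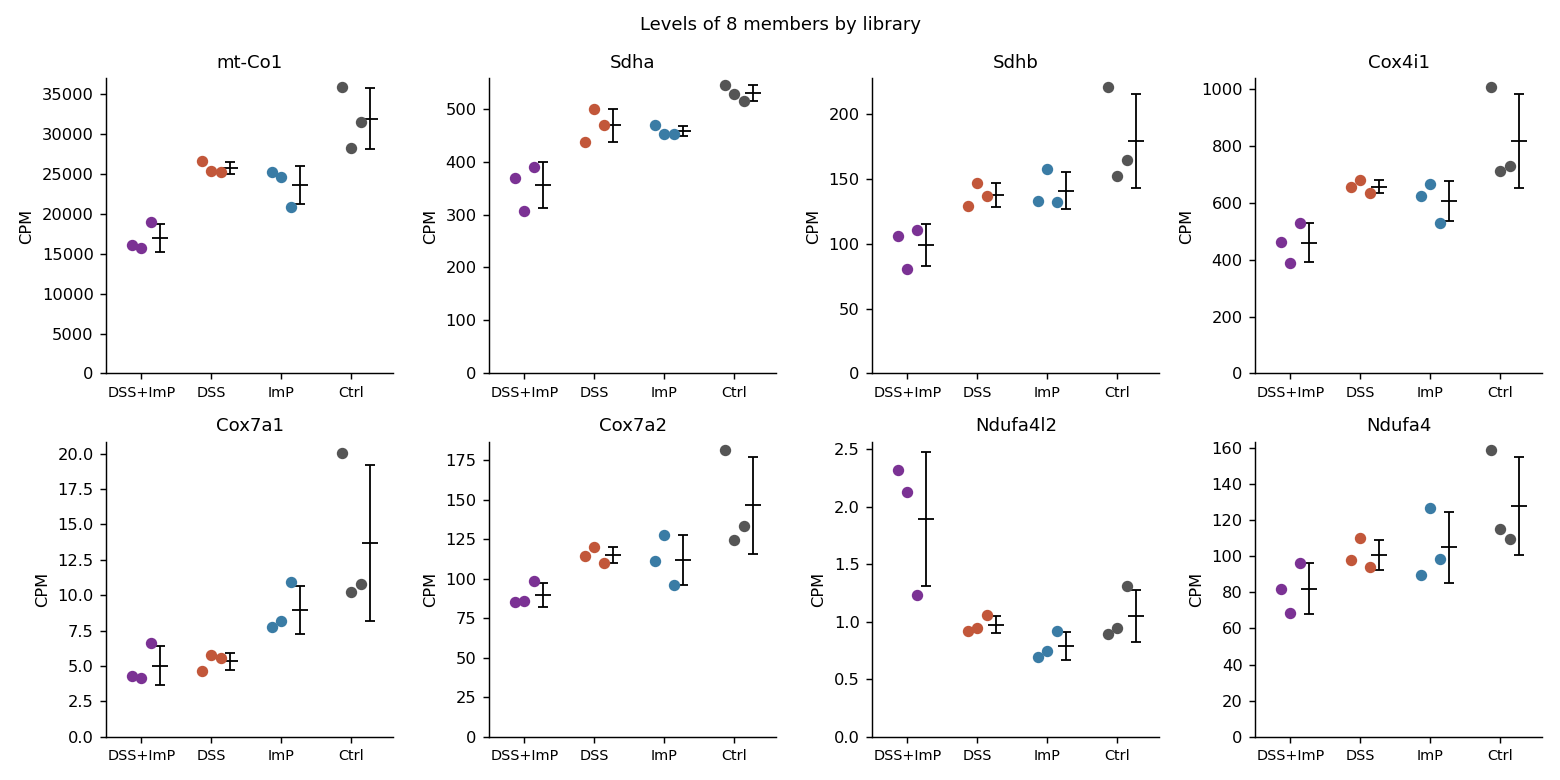
CPM in each library (points) with group mean ± SD (bars) for mt-Co1, Sdha, Sdhb, Cox4i1, the isoforms Cox7a1 and Cox7a2, and Ndufa4l2 and Ndufa4, in DSS+ImP, DSS, ImP and Ctrl. Cox7a1 is about as low in DSS (4.66 to 5.78 CPM) as in DSS+ImP (4.13 to 6.61 CPM), and Ndufa4l2 is higher in DSS+ImP (1.23 to 2.32 CPM) than in ImP (0.693 to 0.924 CPM).

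Counts were also summed by complex and genome. For the mitochondrial members of complex IV the log2 ratio of group means in DSS+ImP was -0.57 against DSS and -0.87 against Ctrl, the largest of the 9 sums. For the mitochondrial members of complex I the ratios were -0.39 against DSS and -0.51 against Ctrl. The nuclear members of complexes I and V in DSS+ImP overlapped those in DSS in their sums (-0.21 and -0.27), whereas those of complexes II, III and IV did not (-0.39, -0.30 and -0.33). Within mitochondrial DNA, the ratio of summed mt-Co to summed mt-Nd counts was 2.40, 2.13 and 2.32 in DSS+ImP, 2.56, 2.61 and 2.58 in DSS, 2.83, 2.53 and 2.29 in ImP, and 3.19, 2.95 and 2.69 in Ctrl. DSS+ImP lay below DSS, and DSS below Ctrl, without overlap, while ImP spanned values of the other groups.

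The mitochondrial ribosomal RNAs, which are not members and which oligo(dT) capture takes only in part, were also lowest in DSS+ImP. mt-Rnr2 had 429.9, 381 and 385 CPM in DSS+ImP, 620.0, 687 and 664 CPM in DSS, 562, 528 and 552 CPM in ImP, and 1146, 929 and 747 CPM in Ctrl. It fell in DSS+ImP against DSS (-0.72 ± 0.13, adjusted p = 0.00929) and in ImP against Ctrl (-0.78 ± 0.13, adjusted p = 0.0154). mt-Rnr1 also fell in ImP against Ctrl (-0.75 ± 0.16, adjusted p = 0.0349). In DSS+ImP, mt-Rnr1 did not pass against DSS (-0.51 ± 0.16, adjusted p = 0.0639) or ImP (-0.34 ± 0.16, adjusted p = 0.221). Against Ctrl, mt-Rnr1 (-1.08 ± 0.16, adjusted p = 0.000539) and mt-Rnr2 (-1.24 ± 0.13, adjusted p = 0.000101) both fell in DSS+ImP. mt-Rnr2 also fell there against ImP (-0.46 ± 0.13, adjusted p = 0.0493). The mitochondrial messengers are polyadenylated but their capture relative to nuclear messengers was not measured here.

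Isoforms known from other tissues were low throughout. In FPKM, Cox7a1 stood at 9.70% ± 1.83 of Cox7a2 in DSS+ImP, 8.19% ± 0.911 in DSS, 14.5% ± 4.77 in ImP and 16.1% ± 2.92 in Ctrl (SD, n = 3 each). DSS+ImP and DSS lay below Ctrl without overlap. Cox6b2, the testis isoform of Cox6b1, stood at 1.41% ± 0.641 of its partner in DSS+ImP, 0.636% ± 0.0208 in DSS, 0.724% ± 0.193 in ImP and 0.754% ± 0.0869 in Ctrl, with DSS+ImP 3 highest. Cox4i2, the lung isoform of Cox4i1, and the muscle isoforms Cox6a2 and Cox8b stood at 0.588% of their partners or less in every library, and none of these isoforms passed in any comparison. Skeletal muscle markers summed to 14.6 to 22.7 CPM in DSS+ImP, 13.8 to 31.2 CPM in DSS, 26.8 to 37.5 CPM in ImP and 19.5 to 23.5 CPM in Ctrl, and smooth muscle markers to 2765 to 3546 CPM in DSS+ImP, 2167 to 3212 CPM in DSS, 2739 to 5026 CPM in ImP and 1924 to 2758 CPM in Ctrl. Both sums in DSS overlapped those in Ctrl, while the smooth muscle sum in DSS+ImP did not. Brown and white fat markers summed to 52.2 to 147 CPM in DSS+ImP and 42.9 to 213 CPM in DSS. They summed to 32.1 to 311 CPM in ImP and 31.2 to 325 CPM in Ctrl. The part of any of these lists in the change of Cox7a1 was not tested.

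Other mitochondrial genes were counted in the same way, and the differences between lists were not tested. In DSS+ImP against Ctrl, 11 of 45 assembly factors, 10 of 18 genes of the TCA cycle and pyruvate dehydrogenase, 10 of 22 electron carriers and exchange proteins, 3 of 26 genes of mitochondrial DNA maintenance and transcription and 7 of 78 mitochondrial ribosomal proteins fell, where the share of all genes called lower was 11.8%. Of the 21 protein import genes 0 fell and 0 rose. Median log2 changes were -0.26 for assembly factors, -0.34 for the TCA cycle, -0.39 for carriers, -0.10 for DNA maintenance, -0.17 for ribosomal proteins and -0.02 for import. The nuclear subunits, at -0.53, had a lower median than any of these lists. In each list where members fell, 0 rose, except for 1 of the 78 ribosomal proteins and 1 of the 10 biogenesis regulators. Against DSS, where 4.04% of all tested genes were called lower, those that fell were 0 of 45 assembly factors, 1 of 18 TCA cycle genes (Ogdh), 2 of 22 carriers (Vdac3 and Coq9), 2 of 26 DNA maintenance genes (Polg2 and Fastk), 0 of 78 ribosomal proteins and 0 of 21 import genes, and 0 of these rose. Each of these calls against DSS was lost with at least 1 library left out. Against ImP, where 4.92% of all tested genes were called lower, 4 of 22 carriers and 3 of 18 TCA cycle genes fell, beside 3 of 96 members. There 2 of 10 biogenesis regulators and 1 of 26 DNA maintenance genes also fell. Of the assembly factors 0 of 45 fell, of the ribosomal proteins 0 of 78 and of the import genes 0 of 21.

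**Figure D5:**
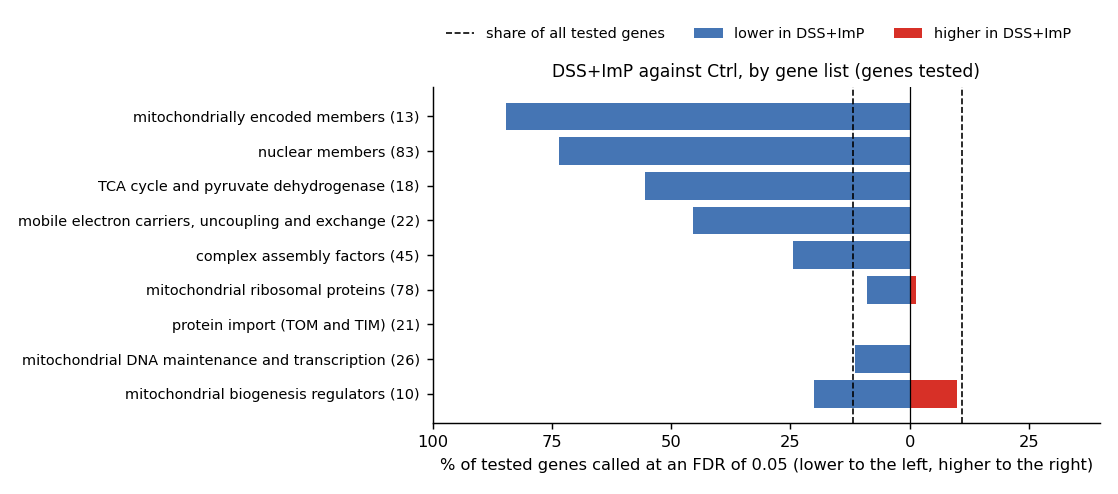
Percent of tested genes called lower or higher in DSS+ImP against Ctrl (FDR under 0.05) for the subunits and other mitochondrial gene lists. Dashed lines mark all tested genes, 11.8% lower and 10.9% higher, and 72 of 96 subunits fell while 0 of 21 import genes did.

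Among carriers, Vdac3, a channel of the outer membrane, had 144, 127 and 154 CPM in DSS+ImP, 192, 210.4 and 187 CPM in DSS, 191, 196 and 179 CPM in ImP, and 314, 259.5 and 268 CPM in Ctrl. It fell in DSS+ImP against Ctrl (-0.99 ± 0.10, adjusted p = 8.74e-05) and DSS (-0.47 ± 0.10, adjusted p = 0.0177), and in DSS (-0.51, adjusted p = 0.0201) and ImP (-0.57, adjusted p = 0.0199) against Ctrl. The last 3 calls were lost with single libraries left out, among them DSS+ImP 3 for the first (adjusted p = 0.0821) and Ctrl 1 for the others (adjusted p 0.0746 and 0.0751). Vdac3 also fell in DSS+ImP against ImP, with log2 changes of -0.48 to -0.34 with single libraries left out. Etfa and Etfb, which feed electrons from fatty acid oxidation to ubiquinone, fell in DSS+ImP against Ctrl (-0.84 and -0.77). In the TCA cycle, Suclg2, Ogdh and Idh3b fell against Ctrl (-0.74, -0.58 and -0.51), and among assembly factors Uqcc1, Surf1 and Sco1 did (-0.46, -0.59 and -0.51). Surf1 and Sco1 serve the assembly of complex IV, and Uqcc1 that of complex III. Against ImP, Suclg2, Cs (citrate synthase) and Ogdh fell (-0.48, -0.45 and -0.40), and the import receptor gene Tomm20 rose (0.44 ± 0.12, adjusted p = 0.0418). Of these 4 calls the one on Suclg2 held with any library left out, whereas all of them but that one were lost without DSS+ImP 3 (adjusted p 0.0683 to 0.0858).

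Of the 10 regulators of mitochondrial biogenesis, 6 had log2 changes below 0 in DSS+ImP against Ctrl and 4 above. Ppargc1a and Ppargc1b fell and Pprc1 rose, so 2 were lower and 1 higher, where 11.8% of all genes were called lower and 10.9% higher. Ppargc1b fell against Ctrl and ImP, with log2 changes of -0.64 to -0.35 and -0.71 to -0.44 with single libraries left out. Ppargc1a, the coactivator PGC-1α, had 13.4, 13.7 and 10.6 CPM in DSS+ImP, 23.6, 21.9 and 26.3 CPM in DSS, 29.8, 16.9 and 32.8 CPM in ImP, and 25.5, 37.9 and 34.4 CPM in Ctrl. It fell in DSS+ImP against DSS (-0.93 ± 0.23, adjusted p = 0.0288), ImP (-1.07 ± 0.23, adjusted p = 0.0115) and Ctrl (-1.37 ± 0.23, adjusted p = 0.00119). The call against DSS was lost without any 1 of DSS+ImP 2, 3 or 4 or DSS 2 or 5 (adjusted p 0.0622 to 0.103), and the others held with any library left out. Pprc1, a related coactivator, had 49.0, 49.5 and 44.7 CPM in DSS+ImP, against 21.4, 27.1 and 29.5 CPM in Ctrl, and rose (0.88 ± 0.14, adjusted p = 0.000878). It also rose against DSS (0.54, adjusted p = 0.0340), a call lost without DSS+ImP 2 or 3 or DSS 2 or 5 (adjusted p 0.0706 to 0.136). Polg2 and Tfam belong to the list of mitochondrial DNA maintenance and transcription. Polg2, the accessory subunit of the mitochondrial DNA polymerase, fell against Ctrl (-1.12 ± 0.16, adjusted p = 0.000444). Tfam, the main transcription factor of mitochondrial DNA, fell by 0.37 on the log2 scale (adjusted p = 0.0352), a call lost without DSS+ImP 2, 3 or 4 or Ctrl 1 (adjusted p 0.0636 to 0.14).

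Some members cannot be fully separated. Ndufb11b, a copy of Ndufb11, had 4 counts in all, in DSS 2, and was not tested. Of the 14 pseudogenes 11 were tested, and Ndufb4c and Cox5b-ps fell in DSS+ImP against Ctrl (-0.65 and -0.83), near the values of their parent genes Ndufb4 (-0.62) and Cox5b (-0.70). Reads shared between such copies could not be assigned, and the same holds for nuclear copies of mitochondrial DNA. mt-Nd4l and mt-Nd4, and mt-Atp8 and mt-Atp6, overlap, and whether counting used the strand, on which mt-Nd6 depends, is not stated in the labels.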

How the data were processed

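Colon RNA of 12 libraries in 4 groups was measured. The authors deposited estimated counts for each gene, unscaled whole numbers, and the deposited FPKM values stand in the same table. The tools were StringTie 1.3.4d, HISAT2 2.0.4 and cutadapt 1.9 with GRCm38, per the submitters' processing notes. Per the labels' protocols, RNA was captured with oligo(dT) and strands were marked with dUTP. The table held 35841 genes, with 55419380 to 67406087 counts per library, and 1627 genes had 0 counts throughout.

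Genes were filtered with filterByExpr (22279 left), scaled by TMM (factors 0.921 to 1.12) and tested two-sided in R 4.3.3 with edgeR 4.0.16's quasi-likelihood fit over all libraries, 1 coefficient per group, FDR 0.05 by Benjamini-Hochberg (common biological coefficient of variation 0.312). SE is the size of the log2 change divided by the root of F. The fit was tested on simulated data. Alternatives were DESeq2 1.42.0, limma 3.58.1 on log2(FPKM + 1) and log2(FPKM + 0.1) for the 14248 genes that reached 1 FPKM in 3 or more libraries, other filters and scaling, fewer samples and a replicate block.

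The members and lists were chosen with earlier results of these data known. Ndufa4 and Ndufa4l2 were counted with complex IV. Named were all mitochondrial members, the 2 most abundant nuclear members per complex, isoform pairs, up to 8 called members per direction and comparison with the largest change and at least 1 FPKM in the higher group, and up to 3 called genes with the smallest p per other list, of which examples are given. Others named were chosen after their values were seen. Liver transcripts mean Alb of at least 10 CPM, and pancreatic ones a sum over 10 genes of at least 5 CPM. Cox7b2 and Cox8c were not analysed here.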

Additional observations from a re-analysis of the deposited data

How the results depend on the processing

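No called result changed direction under any alternative run, while the nuclear median of the interaction, which has no test, changed sign (-0.17 without Ctrl 1, 0.10 without Ctrl 4). Of the results over members, 411 values stayed near the reported one and 51 moved. For medians, shares and ratios, near means a shift smaller than the SD between libraries within groups, which is a wide margin. By it the nuclear median for ImP against Ctrl counted as near at -0.05 without Ctrl 1, against -0.23 in the main fit. Many of the 411 are also fits that left out a library of a group not compared. The number of members called moved most. DESeq2 called 21 for DSS+ImP against DSS, 3 for DSS against Ctrl, 2 for ImP against Ctrl and 24 for DSS+ImP against ImP. Limma on FPKM, with either pseudocount, called 3, 2 and 2 for DSS+ImP against DSS, DSS against Ctrl and DSS+ImP against ImP. A fit to the groups compared alone called 1, 1 and 39 for DSS+ImP against DSS, ImP and Ctrl, with fewer libraries to estimate the spread. Without a filter 2 were called for DSS+ImP against ImP. Within the libraries with liver transcripts, or with that split as a term, 0 were called for DSS against Ctrl. Both were defined after the data were seen. With single libraries left out, calls ran from 0 to 14 for DSS+ImP against DSS, 0 to 1 for DSS against Ctrl, 0 to 17 for DSS+ImP against ImP and 33 to 78 for DSS+ImP against Ctrl. Over the same fits the mitochondrial median ran from -0.36 to -0.18 for ImP against Ctrl, and the nuclear median from -0.62 to -0.34 for DSS+ImP against Ctrl. With batch as a term, a batch being that split, the mitochondrial median was -0.059 for ImP against Ctrl. By limma the mitochondrial median was -0.17 for DSS+ImP against ImP and -0.37 for DSS+ImP against Ctrl. In that FPKM fit the median of all genes moved to 0.12 for DSS+ImP against Ctrl (pseudocount 0.1), and relative to it the mitochondrial members stood at -0.49 and the nuclear ones at -0.50. The log2 change of the mitochondrial share, from FPKM sums, was -0.20 for ImP against Ctrl and -0.38 for DSS+ImP against Ctrl. Where no construction is named, the cause was not tested.

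The replicate numbers gave no sign of pairing the samples: deviations of same-numbered libraries correlated at -0.11 to 0.083, and 0 of 9 pairs exceeded 0.1. With 3 libraries per group this check cannot exclude pairing. With the number as a block, 0 members were called for DSS+ImP against DSS, DSS against Ctrl and DSS+ImP against ImP, and 2 for DSS+ImP against Ctrl (mt-Co1 and mt-Co3). Depth limited only the rarest members, such as Cox8b, which had 0 counts in DSS 3.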
